A study of Rattus norvegicus with 18 samples.

Results

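The 98 gene IDs described here had higher FPKM in the mesenteric perivascular adipose tissue (MRPVAT) of HFD males vs. CD males. They were chosen from a table of 32883 Ensembl rat gene IDs by 3 conditions on log2(FPKM + 0.5). The mean of the HFD males had to be at least 1.5 above the mean of the CD males, the lowest HFD male had to lie above the highest CD male, and an FPKM of at least 0.5 was needed in 3 or more of the 9 males. Of the 14265 IDs with enough FPKM, 0.687% met the rule, and the mirrored rule for lower levels in HFD males found 4. Because these male values chose the members, every male value below is a description and no test was made on it. The females did not enter the rule.

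Perivascular fat lies on the outside of blood vessels and holds adipocytes together with stromal, endothelial and immune cells. It stores and releases lipid and gives off factors that act on the tone of the vessel beside it. The mesenteric depot is a visceral fat that grows with high-fat feeding. Dahl S rats were bred for a rise of blood pressure on salt and are also used for hypertension on a fat-rich diet.

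RNA of whole MRPVAT was sequenced from 1 Dahl S rat per library, after 24 weeks on a high-fat diet (HFD, rats hypertensive per the labels) or a control diet (CD, rats normotensive), both started at weaning and both of normal salt content. The groups were 4 HFD males, 5 CD males, 5 HFD females and 4 CD females. The study sequenced 5 rats per group, so not all of its HFD males and CD females are present here. Of the HFD females, G73FHF3 and G75FHF5 were excluded as outliers by the study, so 3 were kept. G73FHF3 was dropped by the authors after the female diet comparison gave no differentially expressed gene with it included. In a code such as G76MC3, the number after G is a group number, M or F the sex, C or HF the diet and the last digit the rat. Groups were read from the titles, because the tag for sex or treatment goes against the title in 13 of the 18 animals, all 4 CD females among them. Females carry the group numbers 73 and 75 and males 74 and 76, so that effects of sex cannot be told apart from those of group number, whose meaning the sources do not state. The title of G75FC5 gives 73 where the code gives 75, and that of G73FHF3 gives 75 where the code gives 73. Rat numbers recur within these groups by code but not by title. The sources do not state which is right. The files pair no ID with a gene name, so the tissue could not be checked against its markers and no role can be given to a member. Apart from a pair of IDs, the members are therefore called by the length on which their FPKM is based. In bulk tissue, fewer cells of a type and less RNA per cell cannot be told apart.

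The libraries held between 14547762 and 55148275 reads in genes, recovered from the steps between low FPKM values. The number of IDs with at least 0.5 FPKM ranged from 11865 to 14733. It was lowest in G75FC5 (11865), G75FC4 (12798), G76MC3 (13004) and G76MC5 (13242), all on the CD, followed by an HFD male with 13408. These same 4 libraries held the lowest levels of the members, as given below. The part of this difference between libraries in the results was not tested. G75FHF5, at the other end with 14733 IDs, had the fewest reads.

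The male difference of the members reached 3.02 on the log2 scale and had a median of 1.61, against 0.01 over the 14265 IDs. Most members lay near the threshold of 1.5, with a 75th percentile of 1.72, and 6 were at 2 or more. The gap between the lowest HFD male and the highest CD male had a median of 0.23 (log2), and it was under 0.1 in 18 members. The 3 members just inside the threshold had differences of 1.5021, 1.5063 and 1.5066. The 3 IDs just outside it, which met the other conditions, had 1.4973, 1.4987 and 1.4998. Without the condition on overlap, 1.29% of the IDs had a difference of 1.5, and without the condition on size, 15.1% had no overlap.

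The CD males differed among themselves more than the HFD males did. Levels are given as the median over the 98 members of log2(FPKM + 0.5) minus the mean of the CD males. HFD males were at 1.20 (G74MHF2), 1.70 (G74MHF3), 1.81 (G76MHF1) and 1.84 (G76MHF2). CD males were at 0.88 (G74MC4), 0.64 (G74MC5), 0.35 (G76MC4), -0.63 (G76MC5) and -1.27 (G76MC3). G74MHF2 was thus the lowest of the HFD males and lay closest to the CD males, whereas G76MC3 and G76MC5 stood well below the other CD males. By group these averaged 1.64 ± 0.30 in the 4 HFD males and -0.01 ± 0.91 in the 5 CD males (SD). The median SD of a single member was 0.35 in HFD males and 0.92 in CD males, against 0.25 and 0.28 over all 14265 IDs. Over the whole table the CD males were thus hardly more spread than the HFD males.

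**Figure D1:**
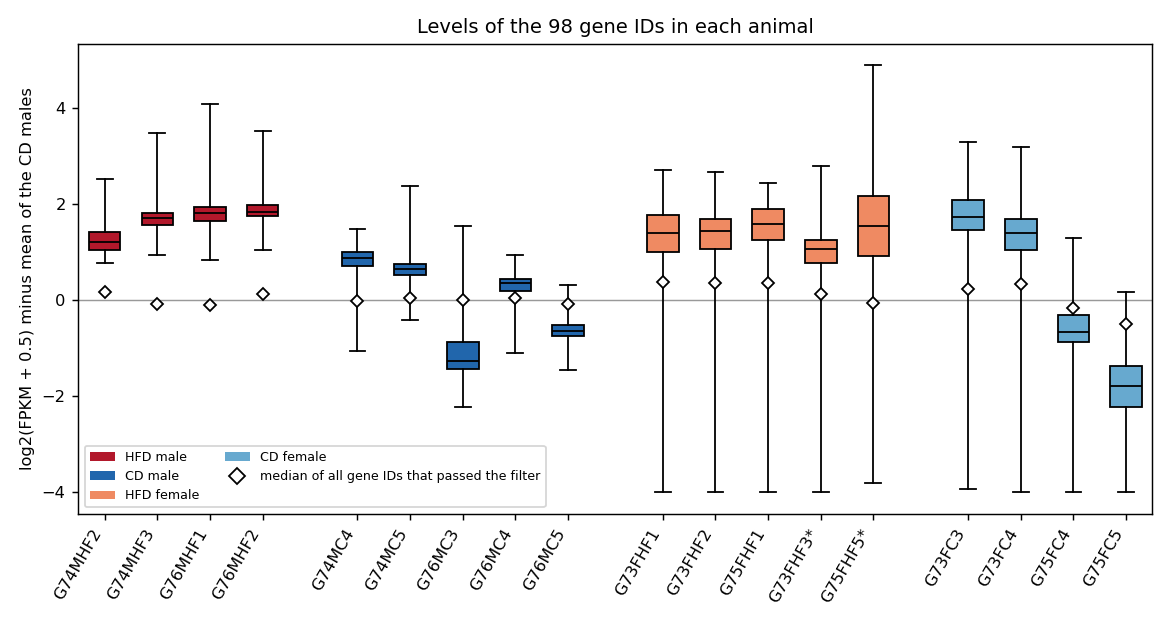
Levels of the 98 gene IDs in each animal, as log2(FPKM + 0.5) minus the mean of the 5 CD males; boxes span the 25th to 75th percentile over the gene IDs with the median as a line, whiskers the full range, diamonds the median of all 14265 IDs over the filter in males, and an asterisk marks the females excluded by the study. The boxes of G76MC3, G76MC5, G75FC4 and G75FC5 lie below 0, whereas those of G73FC3 and G73FC4 lie as high as those of the HFD females.

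G76MC3 and G76MC5 were the lowest CD males in most members. Both lay below the other 3 CD males in 86 of the 98 members, against 25.8% of all IDs. G76MC3 alone was the lowest CD male in 80 members, and the highest was G74MC4 in 78. Among HFD males, G74MHF2 was the lowest in 83. Beside the counts of 80, 78 and 83, no shares over all IDs are given. The median distance of the members below the mean of the HFD males was 2.85 for G76MC3, 2.26 for G76MC5, 1.29 for G76MC4, 1.00 for G74MC5 and 0.77 for G74MC4. Over all IDs this distance was between -0.02 and 0.08 for each of the 5 CD males.

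Within group numbers the size of the male difference differed, and its sign there is fixed by the rule. In group 76 (2 HFD and 3 CD males) the median of the members was 2.27, and all 98 were at 1.5 or more. In group 74 (2 HFD and 2 CD males) the median was 0.68, and 7 of the 98 were at 1.5 or more. Without G76MC3 the rule found 21 IDs, 20 of them members. Without G76MC5 it found 42, of which 40 were members. Without both, an exclusion chosen after seeing the data, it found 15 with 11 members, and the median male difference of the 98 members was 1.03. The size of the male difference thus rested in part on these libraries. The rule used the mean of the CD males, so leaving out its lowest animals was bound to lower the difference in most members. These libraries are also among those with the fewest IDs at 0.5 FPKM, and a link between the 2 was not tested.

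The members took a small share of each library. They held 0.781% to 1.28% of the reads of the HFD males, and 0.194% to 0.594% of those of the CD males. In the kept HFD females the share was 0.817% to 0.967%. In the CD females it was 1.32% in G73FC3, 0.781% in G73FC4, 0.215% in G75FC4 and 0.154% in G75FC5.

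The member with the largest male difference was ENSRNOG00000059714 (3.02, 2758 bases). Its FPKM was 29.0, 61.7, 49.2 and 45.9 in HFD males (G74MHF2, G74MHF3, G76MHF1 and G76MHF2), against 3.41, 17.9, 9.35, 3.25 and 1.55 in CD males (G74MC4, G74MC5, G76MC3, G76MC4 and G76MC5). It had 20.9, 3.47 and 21.9 FPKM in the kept HFD females (G73FHF1, G73FHF2 and G75FHF1) and 54.5, 2.44, 2.87 and 1.05 FPKM in the CD females (G73FC3, G73FC4, G75FC4 and G75FC5). Among the females, this ID was high in 1 CD female (G73FC3), and it was low in G73FHF2 and G73FC4, in both of which most members were high.

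ENSRNOG00000043866 (1571 bases) came next with a male difference of 2.96. It had 409, 627, 714 and 620 FPKM in HFD males, against 63.0, 388, 72.1, 46.8 and 26.7 FPKM in CD males, in the same order of animals. The CD male G74MC5 was close to the lowest HFD male, and the other 4 CD males were far below both. In the kept HFD females it had 125, 35.6 and 160 FPKM, and in CD females 352, 19.8, 10.98 and 9.97 FPKM. The excluded female G75FHF5 had 2207 FPKM, the highest of all animals, and G73FHF3 had 232 FPKM.

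Another ID, of 1735 bases, had 10.04, 10.2, 9.76 and 10.3 FPKM in HFD males and 0.439, 7.34, 5.19, 0.410 and 0.261 FPKM in CD males. In the kept HFD females it had 11.3, 0.801 and 10.1 FPKM, and in CD females 13.6, 1.06, 0.397 and 0.155 FPKM. Like the ENSRNOG00000059714 and ENSRNOG00000043866 values, these were low in G73FHF2 and G73FC4, where most members were high. The other 3 members at 2 or more had 86, 1620 and 2650 bases. That of 1620 bases had 14.8, 16.5, 23.3 and 27.5 FPKM in HFD males and 5.75, 5.77, 0.908, 7.47 and 2.28 FPKM in CD males, so that its groups were apart by 0.94 on the log2 scale. It had 10.14, 14.3 and 14.1 FPKM in the kept HFD females and 11.7, 10.6, 1.15 and 0.649 FPKM in CD females, which follows the pattern of the whole set.

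The most abundant member, of 684 bases, was far above the others in all animals. It had 4703, 7439, 7524 and 8087 FPKM in HFD males, and 4038, 3479, 1706, 2343 and 1390 FPKM in CD males. In the kept HFD females it had 4595, 6570 and 6366 FPKM, and in CD females 9742, 4650, 1630 and 1755 FPKM. The highest value, 14450 FPKM, was in the excluded G75FHF5. Its male difference of 1.51 put this ID just inside the threshold. Averaged over the group, the members had between 1.20 and 6940 FPKM in HFD males with a median of 14.5, against a median of 5.02 in CD males. Over the 14265 IDs these medians were 8.64 and 7.56 FPKM.

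A pair of members was high in males and low in females on both diets. The member of 1907 bases had 19.7, 28.2, 31.5 and 37.7 FPKM in HFD males and 15.6, 15.2, 1.46, 11.6 and 4.95 FPKM in CD males, and at most 0.0721 FPKM in any of the 9 females. It was the only member under 0.5 FPKM in all females, where 96 of the 14265 IDs were. The member of 763 bases had 75.3, 86.8, 111 and 60.7 FPKM in HFD males and 18.9, 34.4, 12.3, 35.1 and 30.4 FPKM in CD males. It had 9.12, 5.27 and 5.62 FPKM in the kept HFD females and 4.88, 5.55, 9.17 and 7.12 FPKM in CD females. The excluded HFD female G73FHF3, at 36.7 FPKM, lay above all CD males in this member and apart from the other 8 females. Sex was not tested here, and group number differs with it.

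**Figure D2:**
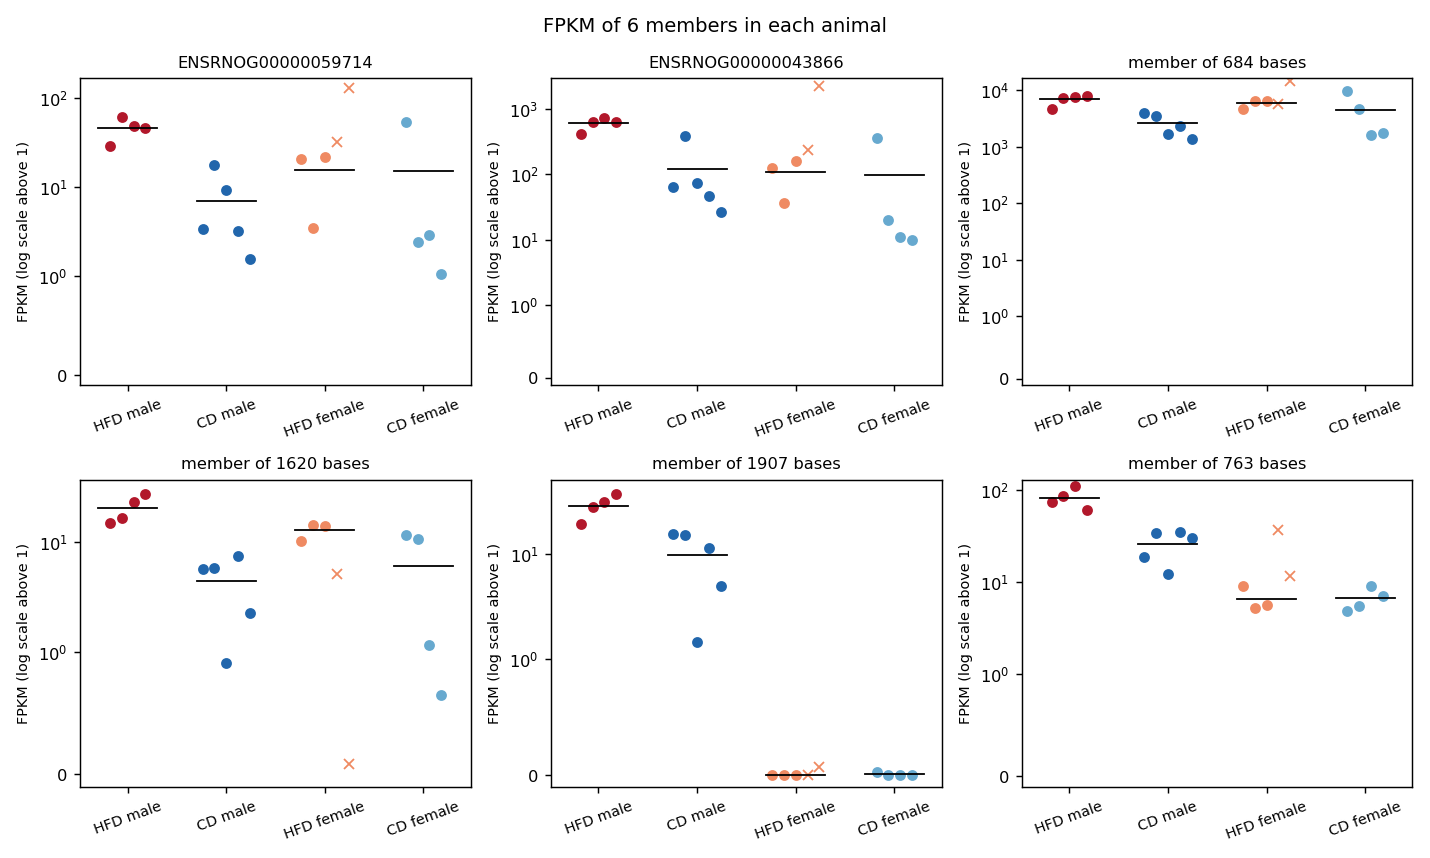
FPKM of 6 members in each animal, on an axis that is logarithmic above 1 FPKM and linear below; points are animals, crosses the 2 HFD females excluded by the study, and lines the mean of the other animals of a group. The HFD males lie above the CD males in each panel, the CD females overlap the HFD females, and the member of 1907 bases is close to 0 in all females.

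Some members rested on few reads. Of the 10 members shorter than 300 bases, 7 had under 30 reads in at least 1 HFD male, and these were the only such members. The member of 49 bases had between 1 and 13 reads in HFD males and at most 1 in CD males. That of 73 bases had 2 or 3 reads in HFD males and 0 in each CD male, and 1.87 and 4.05 FPKM in the CD females G73FC3 and G73FC4. For such IDs a difference of 1.5 is a difference of a few reads. Members shorter than 300 bases made up 10.2% of the set and 5.19% of all IDs. The remaining 91 members had at least 30 reads in every HFD male.

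As a set, the members were longer than the other IDs. Their median length was 2644 bases (25th to 75th percentile 1436 to 3410), against 1990 bases (1231 to 3075) over the 14265 IDs. Of IDs under 300 bases, 1.35% (10 of 741) were members, and of IDs of 300 to 1000 bases, 0.107% (2 of 1868) were members. This share was 0.482% at 1000 to 2000 bases, 0.868% at 2000 to 3000 bases, 1.10% at 3000 to 5000 bases and 0.491% above. The median male difference over all IDs was 0.10 under 300 bases, -0.06 at 300 to 1000 bases and 0.17 above 5000 bases. In females these medians were 0.55, 0.02 and 0.67, so the shortest IDs did not follow the rise with length of the others. The part of gene length in the results was not tested.

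In the kept HFD females the median level of the members lay within the range of the HFD males' medians, and the CD females fell into 2 pairs. On the scale of the plot of levels, HFD females were at 1.39 (G73FHF1), 1.44 (G73FHF2) and 1.58 (G75FHF1). CD females were at 1.74 (G73FC3), 1.40 (G73FC4), -0.66 (G75FC4) and -1.79 (G75FC5). The excluded HFD females were at 1.06 (G73FHF3) and 1.55 (G75FHF5). Of the 98 members, 52 in G73FHF1, 52 in G73FHF2 and 59 in G75FHF1 were within the range of the HFD males, and 33, 32 and 21 were below it. For these counts the shares over all IDs are not given. G73FC3 had the highest level of all 9 females and G75FC5 the lowest of all 18 animals. The group means were 1.47 ± 0.10 (SD, n = 3) in HFD females and 0.17 ± 1.68 (SD, n = 4) in CD females.

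Counted by member, the same pairs appeared. Of the 98 members, 81, 78 and 86 in the kept HFD females (G73FHF1, G73FHF2 and G75FHF1) were above every CD male. In CD females this held for 92 in G73FC3, 82 in G73FC4, 2 in G75FC4 and 0 in G75FC5. In G75FC5, 78 members were below every CD male, and in G75FC4 13. The CD male values used here also entered the rule. Shares over all IDs are not given beside these counts, so the counts are descriptions. The median level taken over all 14265 IDs was 0.37, 0.35 and 0.35 in these HFD females. In G73FC3, G73FC4, G75FC4 and G75FC5 it was 0.23, 0.34, -0.17 and -0.49. G73FC3 and G73FC4 were both above G75FC4 and G75FC5 in 93 members, and in 7092 of the 14186 IDs tested in females. G75FC4 and G75FC5 were both below all the other 7 females in 83 members, against 34.5%. Low values in these animals were seen over the whole table too, though in a smaller share of IDs than among the members.

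**Figure D3:**
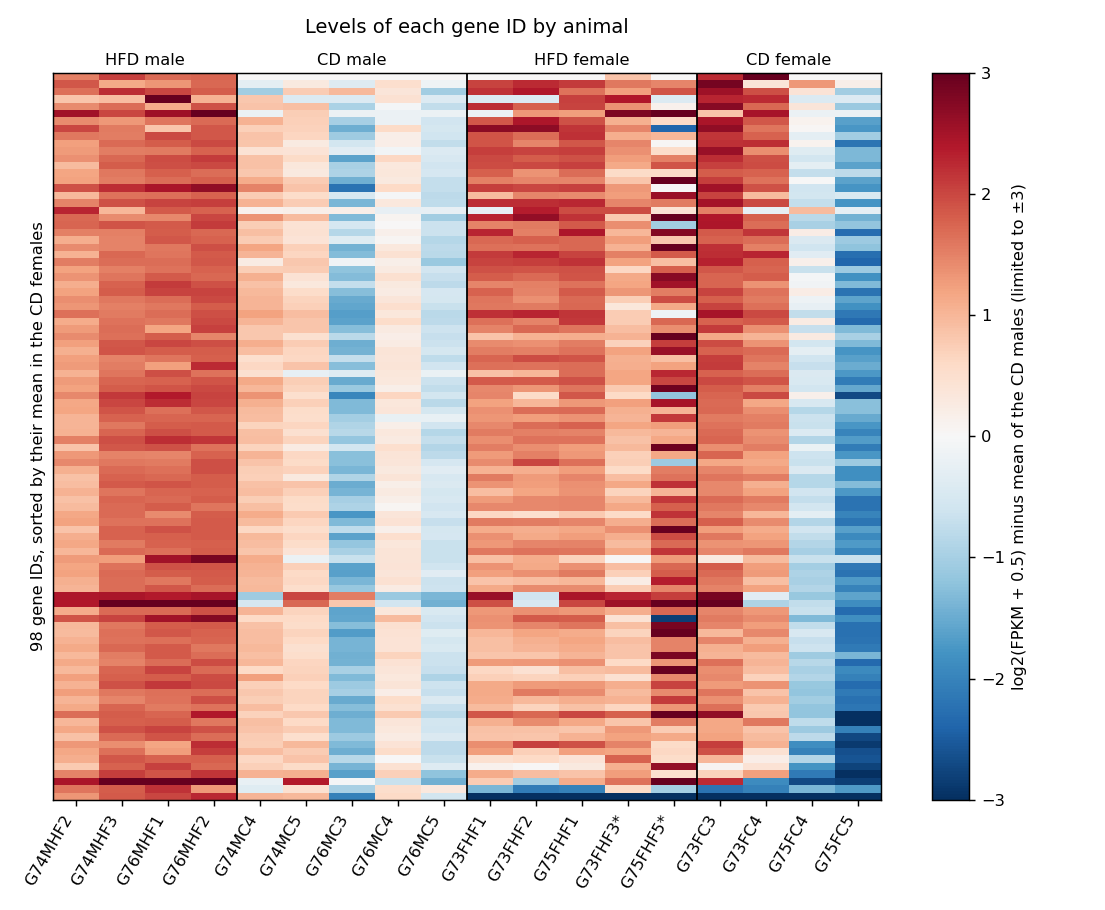
Levels of each of the 98 gene IDs (rows, sorted by their mean in the CD females) in the 18 animals (columns), as log2(FPKM + 0.5) minus the mean of the CD males, limited to ±3; red is higher, blue lower, and an asterisk marks the females excluded by the study. Rows are red in all HFD males and in G73FC3 and G73FC4, and blue in G76MC3, G76MC5, G75FC4 and G75FC5 with few exceptions.

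The diet difference in females was tested with limma on log2(FPKM + 0.5) over 14186 IDs, in 3 kept HFD females vs. 4 CD females. None of the 96 members tested was called at an adjusted p under 0.05 and a log2 fold change over 1. Over all IDs 0.0% were called as higher and 0.0% as lower, and the smallest adjusted p was 0.2245, or 0.4817 among members. At an unadjusted p under 0.05, 1 member was higher and 0 lower, where 2.38% of all IDs were higher and 1.27% lower. Limma-voom on the recovered reads also called 0 members and 0.0% of all IDs, with 6 members and 5.05% of all IDs higher at an unadjusted p under 0.05. The other 2 members, of 73 and 1907 bases, did not reach 0.5 FPKM in 3 of the 7 animals. The study fitted DESeq2 to counts with more CD females than are present here, and reported a few genes that differed by diet in females. The absence of calls here is therefore not a like comparison with the study.

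Most members were nevertheless higher in HFD females on average. The median difference was 1.27 (25th to 75th percentile 1.09 to 1.47, range -0.52 to 2.19), against 0.32 over all IDs. Of the 96, 94 had a positive difference, where 67.6% of all IDs had one, and 81 had a difference of 1 or more, where 16.4% did. In 2 members (2.08%) the lowest HFD female was above the highest CD female, against 5.82% of all IDs. The median SE of a member's difference was 0.84. The 619 IDs with a male difference of 1.0 to 1.5 and no overlap had a median of 1.16 in females, so the values changed little across the threshold.

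These counts depended on single animals. Without G73FC3, the lowest HFD female was above the highest CD female in 32 of 95 members (33.7%), against 12.7% of all IDs. Without G73FC4 this held for 6 of 95 members and 22.3% of all IDs, without G73FHF1 for 8 and 10.5%, and without G73FHF2 for 4 and 8.35%. It held for 2 members without G75FC4 (6.42% of all IDs) or G75FC5 (7.05%), and for 0 with G73FHF3 added (1.82%) or with both excluded females (0.941%). The members were thus a larger share than all IDs without G73FC3 and a smaller share in the other 7 of these cases. Without G75FHF1 it held for 3 of 95 members (3.16%), again a smaller share than over all IDs.

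At an unadjusted p under 0.05 from limma, 46 of 95 members (48.4%) were higher in HFD females without G73FC3, against 9.28% of all IDs. Without G73FC4 there were 11 of 95, against 14.6% of all IDs. Without G73FHF1 there was 1 member (0.852% of all IDs), and there were 0 without G73FHF2 (0.71%), G75FHF1 (0.832%), G75FC4 (0.959%) or G75FC5 (1.59%). With both excluded females there were 6 (4.33% of all IDs), with the group number of the code as a block 4 (3.58%), and with all 4 groups in one fit 14 (17.1%). A difference of 1 or more was found in 9 of 96 members without G75FC5, against 2.49% of all IDs, and in 47 without G75FC4, against 9.92%. It was found in 48 members after median-of-ratios scaling (7.61% of all IDs), 30 after quantile normalization (4.28%), 50 with the block (8.31%) and 0 with sample quality weights (0.966%).

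The female difference depended on which CD females were compared. The 2 pairs of CD females used next differ in the levels of the members themselves. The calls and p-values from these fits are therefore descriptions and no test of diet. Against G75FC4 and G75FC5, that is without G73FC3 and G73FC4, the median of the members was 2.68, and 92 of 94 members were called higher (smallest adjusted p = 0.00419 by limma). In that fit 37.0% of all IDs were called higher and 5.2% lower. Against G73FC3 and G73FC4 the median was -0.09, 26 of 96 members were above 0, where 57.1% of all IDs were, and 0 members were called, as were 0.0% of all IDs (smallest adjusted p among members 0.9793 by limma). Without G75FC5 alone the median was 0.62. With sample quality weights, which give less weight to libraries far from their group, it was 0.15. Within group 73 (2 HFD and 2 CD females by code) the median over all 98 members was -0.13, and in group 75 (1 HFD and 2 CD females) it was 2.76. By the numbers of the titles, which put G75FC5 in group 73, it was 0.97 in group 73 and 2.10 in group 75.

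**Figure D4:**
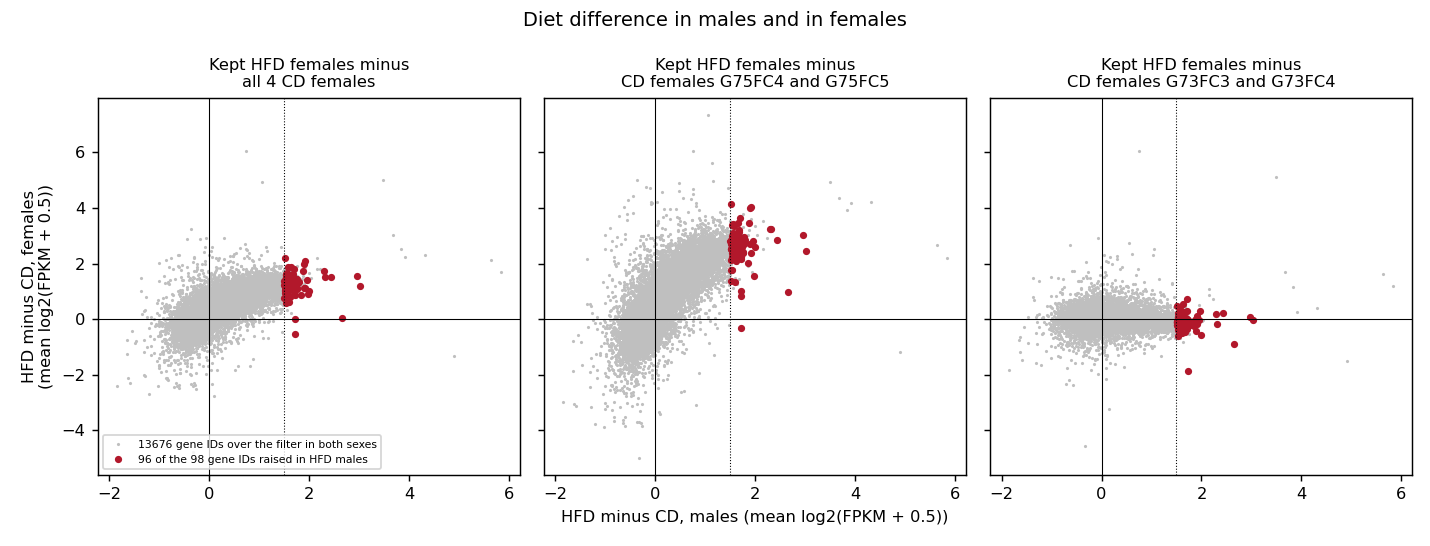
Difference between HFD and CD males (x axis) and between kept HFD females and CD females (y axis), both as differences of mean log2(FPKM + 0.5), for 13676 gene IDs over the filter in both sexes (grey) and 96 of the 98 members (red); the dotted line is at 1.5, and the panels use all 4 CD females, G75FC4 and G75FC5, or G73FC3 and G73FC4. The members lie mostly above 0 in the first and second panels and around 0 in the third.

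**Figure D5:**
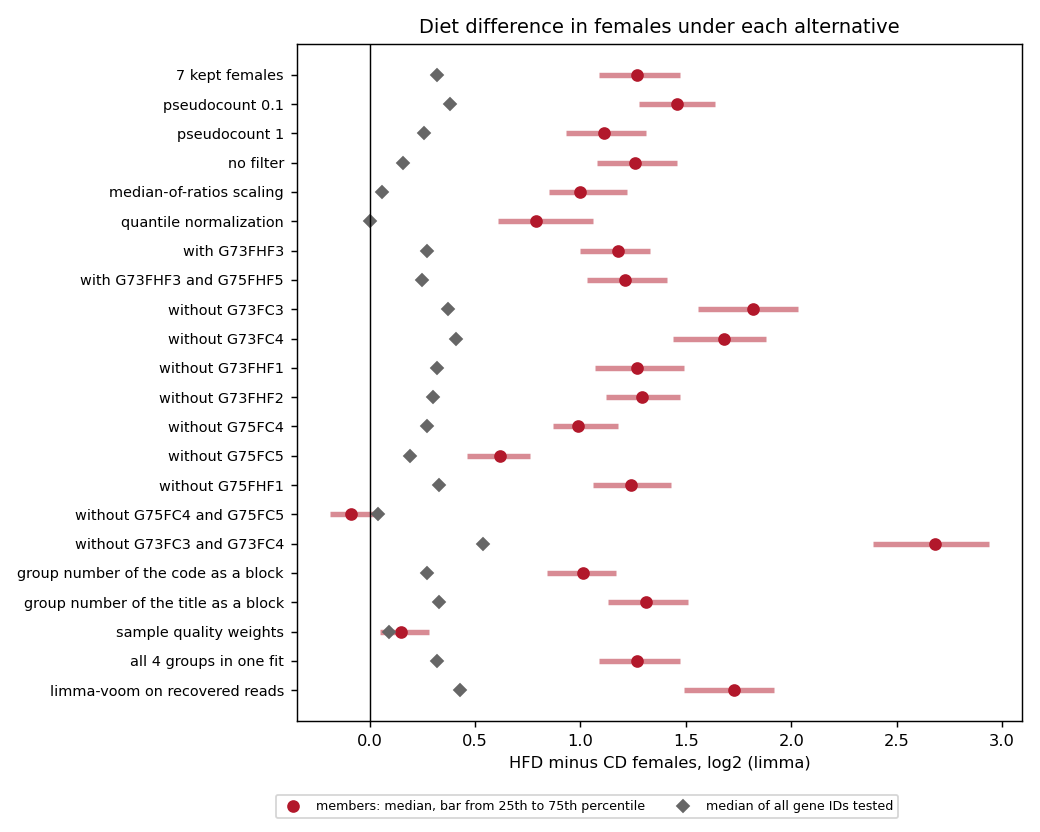
Median difference between HFD and CD females (x axis, log2, limma) of the members (red, with bars from the 25th to the 75th percentile) and of all gene IDs tested (grey) under each choice of animals and processing (rows). The members lie at 0.62 or more, except without G75FC4 and G75FC5 (-0.09) and with sample quality weights (0.15).

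Single members mostly showed the same pairs of CD females. The smallest p belonged to the member of 2282 bases (log2 difference 1.57, SE 0.625, unadjusted p = 0.0367 and adjusted p = 0.4817 by limma). It had 3.88, 6.11 and 4.67 FPKM in the kept HFD females and 3.14, 3.07, 0.532 and 0.265 FPKM in CD females, so its groups did not overlap. In G73FHF3 and G75FHF5, which the study excluded, it had 2.24 and 0.271 FPKM, within the range of the CD females. The largest female difference, 2.19, was that of the member of 1774 bases. It had 42.5, 67.8 and 61.6 FPKM in the kept HFD females and 68.3, 33.5, 4.05 and 1.77 FPKM in CD females, and G73FC3 was above all of the HFD females. The member of 684 bases had a difference of 0.77 (SE 0.654), and ENSRNOG00000043866 one of 1.56 (SE 1.22). The only members tested with a negative difference were that of 49 bases (-0.52), on a few reads, and that of 763 bases (-0.01).

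The levels of the kept HFD females were near those of the HFD males. The difference between these groups had a median of -0.24 over the members (25th to 75th percentile -0.56 to 0.06), against 0.24 over all IDs. It was lowest, at -5.86, in the member of 1907 bases. For 59 of the 98 members the mean of the kept HFD females fell within the range of the HFD males, with no share over all IDs given beside it. This comparison shares its HFD males with the rule and was not tested.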

How the data were processed

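Paired-end reads had been aligned by the authors (STAR 2.5) and assigned to genes (HTSeq 0.6.1), and their counts went into DESeq2 1.24.0. They deposited FPKM (fragments relative to gene length and library size) for 32883 gene IDs. The sources used here name neither the genome build and annotation nor the formula of the FPKM. FPKM are not counts, so log2(FPKM + 0.5) was used, on which differences of low genes are understated. IDs needed 0.5 FPKM in at least 3 of the animals compared.

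The female diet contrast was fitted with limma 3.58.1 (trend, two-sided, R 4.3.3) over all IDs that passed, with Benjamini-Hochberg adjustment. IDs were called where the adjusted p was under 0.05 and the log2 fold change over 1 in size, as in the study. The 3 HFD females kept by the study entered, a choice that was not independent of this contrast, as told above for G73FHF3. Each animal is 1 sample.

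Reads, library totals and lengths were recovered from the steps between FPKM values with Python 3.11.15, numpy 2.4.6 and pandas 2.3.3. All 22851 IDs with reads came out as whole reads (tolerance 0.01 reads), and summed to between 99.97% and 100% of each total. They were used for depth and for limma-voom. At 0.5 FPKM an ID of median length held 12.1 to 45.8 reads, and more deeply sequenced libraries give the steadier low values. Scripts were tested on simulated data. Plots used matplotlib 3.10.9.

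Members and lists were chosen with earlier results of these data known. Of the gene IDs, 0 could be paired with symbols, so the gene lists, the markers and the rule for named genes, which all used symbols, were not applied. The IDs printed are the pair with the largest male difference among members of at least 1 FPKM on average in HFD males. Other members shown were chosen after their values were seen. Alternatives covered the pseudocount, the filter, the scaling, the animals, the group number, weights and the pooling of groups.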

Additional observations from a re-analysis of the deposited data

Results flagged for a closer look

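Of 40 groups of animals examined (the median level of the members and the FPKM of 9 members, in each of the 4 groups), 11 held an animal far from the rest, by a rule that chance meets in about 1 in 20 groups. Most of the 9 members were chosen after their values were seen, so 11 of 40 cannot be set against that rate. On the log2 scale, over all 98 members, 13 were marked in HFD males and 1 in CD males. In females 27 were marked on the HFD and 1 on the CD, where the HFD females include the animals that the study excluded. No shares over all IDs are given beside these counts, so they cannot be read as a trait of the members. In none of the 4 groups was the median level of the members so marked.

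G75FHF5, which the study excluded, stood apart among the HFD females in 4 IDs, with 131 FPKM for ENSRNOG00000059714, 2207 FPKM for ENSRNOG00000043866 and 14450 FPKM for the member of 684 bases, and in the member of 1907 bases, where its 0.0721 FPKM is 2 reads against 0 in the other HFD females. The other excluded female, G73FHF3, had 36.7 FPKM for the member of 763 bases. Among CD females, G73FC3 was far above the others with 54.5 FPKM for ENSRNOG00000059714, 352 FPKM for ENSRNOG00000043866 and 13.6 FPKM for the member of 1735 bases. Its 0.0238 FPKM for the member of 1907 bases also met the rule, but is 1 read against 0 in the other CD females. In males, G74MC5 had 388 FPKM for ENSRNOG00000043866 on the CD and G76MHF2 had 76.03 FPKM for the member of 1774 bases on the HFD.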

How the results depend on the processing

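The size of the set depended on most choices. In place of the 98 members, the rule found 281 IDs with a pseudocount of 0.1 (all 98 members among them), 44 with 1 (44 members), 51 after median-of-ratios scaling (51 members) and 33 after quantile normalization (30 members). At a difference of 1 it found 717 and at 2 it found 6. Within group 74 it found 20, of which 5 were members, within group 76 994 (94 members), and without G76MC3 and G76MC5 15 (11 members). Leaving out 1 male gave 21 (without G76MC3, 20 members) to 369 (without G74MC4, 97 members), with 321 without G74MHF2 (96), 201 without G74MC5 (97), 63 without G76MHF2 (60), 149 without G76MC4 (96) and 42 without G76MC5 (40). No filter gave 100, and at least 30 reads in each HFD male, chosen after seeing the data, 91.

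In females, 0 members were called in 20 of 21 alternatives, and 92 without G73FC3 and G73FC4, the CD females with the highest levels of the members. The median difference of 1.27 became -0.09 without G75FC4 and G75FC5 and 2.68 without G73FC3 and G73FC4. Leaving out 1 female gave 0.62 to 1.82, and the other settings 0.15 (sample quality weights) to 1.73 (limma-voom). With the group number as a block it was 1.01 (code) and 1.31 (title). With the members of at least 30 reads, chosen after seeing the data, it was 1.30. The median of all IDs was 0.32, 0.06 after median-of-ratios scaling and 0.00 after quantile normalization.

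Of single members, the difference without G75FC4 and G75FC5 was -0.04 for ENSRNOG00000059714, -0.22 for the member of 684 bases and 0.29 for that of 763 bases. With sample quality weights it was -0.11 for the member of 684 bases and 0.31 for that of 763 bases. This ID, at -0.01, also changed sign with G73FHF3 (0.60), with both excluded females (0.64), with the block of the code (0.03) and without single females (-0.24 to 0.15). The cause was not tested. No paired analysis was possible because each rat had a single diet and gave a single library. Depth limits the short members most.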

Other observations

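The mirrored rule, with HFD males at least 1.5 below CD males and no overlap, found 4 of 14265 IDs, against 98 higher ones. Of the members, 32 were under 0.5 FPKM in G75FC5, 8 in G75FC4, 15 in G76MC3 and 11 in G76MC5. In the other 14 animals this number lay between 0 and 8.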
